A study of Mus musculus with 6 samples.

Results

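The genes described are the C-type lectin receptors, read in mouse heart cells after myocardial infarction (MI) and after sham operation. Members were the rows of the deposited gene expression table whose symbol begins with Clec and a number, and also Mrc1, Mrc2, Ly75, Cd207, Cd209b, Cd209d, Cd209f, Cd209g, Olr1 and Cd69, which gave 43 of 17714 genes. RNA was sequenced in 3 libraries from MI and 3 from sham, all from wild-type mice, all at day 3, and all labelled lymphatic endothelial cells of the heart. The labels' protocols speak of heart tissue or primary endothelial cells, name serum-containing culture medium and give no sorting step, and do not say whether libraries came from separate animals. Sex, age and strain are not given in the sources used here, and p-values measure the spread between these libraries only, which may be technical.

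C-type lectins share a carbohydrate-recognition fold, although many members bind proteins or lipids through it. On myeloid cells, activating receptors such as Mincle (Clec4e) and Dectin-1 (Clec7a) signal through the kinase Syk and the adaptor Card9, either from a motif of their own or through the chains Fcer1g and Tyrobp, and others carry inhibitory motifs that recruit phosphatases. A further group takes up glycoproteins and is known from resident macrophages and dendritic cells. Clec14a, by contrast, is an endothelial surface protein that binds the matrix protein Mmrn2.

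The MI libraries held 21154200 to 21689212 estimated counts and the sham libraries 3206373 to 3591135, so depth followed the group. Levels are given as CPM, which brings each gene's counts to a common library size after TMM scaling, unless TPM, a per-length unit, is named. The label was not borne out as a single cell type: 11 macrophage and monocyte markers summed to 17741 to 19665 CPM in MI and 3201 to 3366 CPM in sham, and 13 pan-endothelial markers summed to 2092 to 2206 CPM in MI and 9182 to 9325 CPM in sham. The lymphatic regulator Prox1 averaged 1.26 ± 0.456 CPM in MI and 7.12 ± 0.548 CPM in sham (SD, n = 3 each). Of 8 lymphatic endothelial markers, Prox1 among them, 7 fell and 1 rose. The 8 summed to 275 to 286 CPM in MI and 517 to 532 CPM in sham. The marker that rose, the podoplanin gene Pdpn, averaged 202 ± 7.01 CPM in MI and 4.93 ± 0.960 CPM in sham, and made up most of the MI sum. In such mixed RNA, fewer cells of a type and less RNA per cell cannot be told apart, and with depth split the same way, an unstated library batch and the operation cannot be told apart either. Cardiomyocyte markers, 4 of 4 lower, summed to 71.7 to 82.3 CPM in MI and 1189.6 to 1266 CPM in sham.

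Of 12 tested myeloid sensing lectins, 9 rose in MI, Clec4e and Clec4d among them, and 3 fell. Of 6 tested resident-type lectins, 3 fell and 1 rose, and the endothelial Clec14a fell. Of the 43 members, 30 had counts enough to be tested and 13 did not. By edgeR's quasi-likelihood test, with p-values adjusted over all tested genes (Benjamini-Hochberg), 15 of the 30 were higher in MI at an adjusted p below 0.05, where 36.4% of all 13370 tested genes were higher, and 10 were lower, where 36.9% of all genes were lower. Thus 25 members were called, against a background in which 73.3% of genes were called. The libraries of MI and sham did not overlap for 25 of the 30, and for 76.1% of all tested genes. The median log2 fold change, MI minus sham, was 0.83 over the tested members and -0.01 over all tested genes. Scaled to total counts, the median of all genes was -0.36 and higher genes made up 34.9% of all calls instead of 49.6%, while 15 members were higher and 12 lower.

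**Figure D1:**
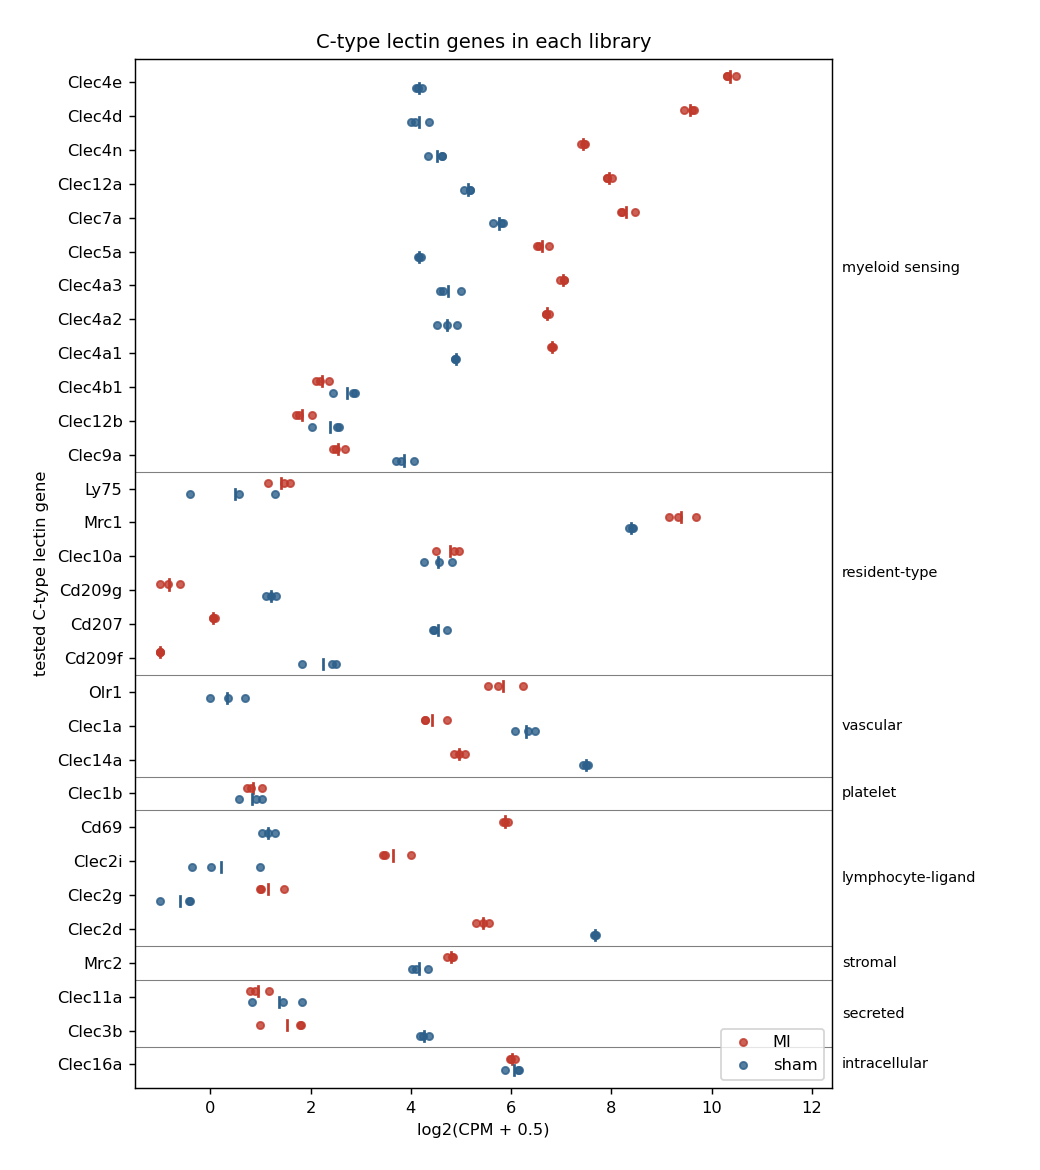
Levels of the 30 tested C-type lectin genes on the scale log2(CPM + 0.5), with each dot 1 library (MI red, sham blue), vertical ticks the group mean, and horizontal lines dividing the classes. The MI dots of Clec4e and Clec4d lie far right of their sham dots, and those of Cd207, Cd209f and Clec14a lie to the left of theirs.

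Clec4e, which encodes Mincle, a receptor for glycolipids of mycobacteria and for a nuclear protein released by dying cells, had, with Olr1, the largest rises among the members. It stood at 1430.2, 1268 and 1273 CPM in MI, against 16.6, 18.2 and 17.1 CPM in sham. Every MI library was thus far above every sham library, with a 76.4-fold rise (log2 fold change 6.26 ± 0.11, SE, adjusted p = 4.48e-12 in edgeR's quasi-likelihood test). Clec4d, whose product forms a receptor complex with Mincle, had 701, 798 and 776 CPM in MI, against 15.6, 16.4 and 20.2 CPM in sham. It rose 43.7-fold (log2 fold change 5.45 ± 0.12, SE, adjusted p = 1.06e-11), again without overlap. Among all tested genes, 2.28% were called at least 16-fold higher in MI, and Clec4e, Olr1, Clec4d and Cd69 were among them. Clec4e ranked 81 and Clec4d 128 by fold change among the 4861 higher genes.

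The genes of this pair lie next to each other on chromosome 6 of GRCm38.p6. Clec4d spans 123262107 to 123275268 and Clec4e spans 123281789 to 123289871, both protein coding, with 6520 bases between them, and they run toward each other. Their promoter windows, from 250 bases before to 50 bases after the start site in RefSeq (GRCm38.p6), are shown because these genes had the largest rises of their block. Windows for Olr1, at the end of the second block, and for Clec14a, which fell, are set beside them. Capitals mark matches, on either strand, to TTNNGNAA (C/EBP), TGANTCA (AP-1) or AGGAAG (ETS family), where N is any base.
Clec4e, chr6:123289822-123290121, minus strand: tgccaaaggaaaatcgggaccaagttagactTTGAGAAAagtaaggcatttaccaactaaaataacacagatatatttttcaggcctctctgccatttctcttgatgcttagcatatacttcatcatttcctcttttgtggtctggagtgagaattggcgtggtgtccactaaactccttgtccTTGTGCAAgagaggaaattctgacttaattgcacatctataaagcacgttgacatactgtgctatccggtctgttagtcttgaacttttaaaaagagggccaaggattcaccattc
Clec4d, chr6:123261857-123262156, plus strand: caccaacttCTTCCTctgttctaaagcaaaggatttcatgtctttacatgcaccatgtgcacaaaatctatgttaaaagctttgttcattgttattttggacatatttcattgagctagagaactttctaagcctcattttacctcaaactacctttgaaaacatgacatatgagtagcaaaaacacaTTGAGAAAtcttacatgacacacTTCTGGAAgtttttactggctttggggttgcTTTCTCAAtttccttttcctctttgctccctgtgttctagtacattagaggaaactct
Olr1, chr6:129507116-129507415, minus strand: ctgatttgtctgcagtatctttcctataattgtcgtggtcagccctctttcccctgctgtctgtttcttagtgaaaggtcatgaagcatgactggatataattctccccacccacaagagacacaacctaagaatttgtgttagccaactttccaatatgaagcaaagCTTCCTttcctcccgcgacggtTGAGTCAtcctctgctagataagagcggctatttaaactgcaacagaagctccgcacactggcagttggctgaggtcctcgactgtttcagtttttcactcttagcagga
Clec14a, chr12:58269209-58269508, minus strand: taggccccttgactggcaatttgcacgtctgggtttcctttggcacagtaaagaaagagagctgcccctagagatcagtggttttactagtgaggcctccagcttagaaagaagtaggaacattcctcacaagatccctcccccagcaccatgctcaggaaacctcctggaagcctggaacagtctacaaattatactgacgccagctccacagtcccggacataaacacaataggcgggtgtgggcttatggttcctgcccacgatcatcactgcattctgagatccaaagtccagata
The Clec4e window held 2 matches to the C/EBP letters and the Clec4d window 3, and the Clec4d window also held 1 match to the ETS letters. The Olr1 window held 1 AP-1 and 1 ETS match, and the Clec14a window held none of these letters. Of 32851 promoter windows of this length, 40.7% held the C/EBP letters, 35.4% the ETS letters and 7.81% the AP-1 letters. Among 34 members with a window, 16 held the C/EBP letters, 17 the ETS letters and 10 the AP-1 letters. A match describes the letters only, and no match says only that they are not in this window.

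Clec4n, Clec7a and Clec5a, activating receptors of myeloid cells, rose as well. Clec4n, which encodes the mannan receptor Dectin-2, had 168, 176 and 176 CPM in MI, against 24.3, 19.8 and 24.0 CPM in sham, a 7.63-fold rise (adjusted p = 2.83e-10 in edgeR). Clec7a, which encodes the beta-glucan receptor Dectin-1, had 352, 292 and 297 CPM in MI, against 49.0, 56.8 and 55.0 CPM in sham, a 5.86-fold rise (adjusted p = 8.79e-10). Both genes were separated between the groups by a wide margin in every library. Clec5a, whose product signals through Tyrobp, had 107, 90.8 and 93.6 CPM in MI, against 17.8, 17.2 and 17.4 CPM in sham, a 5.56-fold rise (adjusted p = 2.29e-09).

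Clec12a and 3 genes of the Clec4a family also rose. Clec12a, an inhibitory receptor that binds uric acid crystals, had 240.1, 242 and 256 CPM in MI, against 35.9, 35.7 and 32.9 CPM in sham, a 7.06-fold rise (adjusted p = 1.25e-10 in edgeR). Clec4a2, which encodes the inhibitory receptor DCIR, had 103, 108 and 103 CPM in MI, against 29.7, 22.3 and 25.7 CPM in sham, and rose 4.04-fold (adjusted p = 1.21e-08). Its relatives Clec4a3 and Clec4a1 rose 4.93-fold and 3.84-fold, with means of 129.8 ± 3.50 and 112 ± 1.73 CPM in MI and of 26.4 ± 4.45 and 29.2 ± 0.324 CPM in sham (SD, n = 3 each). The Clec4a and Clec4b genes are close paralogs, so the division of counts among them is uncertain.

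Not every member of this class rose. Of its 14 genes, 12 were tested, 9 were higher and 3 were lower, where 36.4% of all tested genes were higher and 36.9% lower. The median log2 fold change of the 12 was 2.39, against -0.01 over all tested genes. Without MI 1 or without sham 1, 1 was lower. Clec9a, a receptor of cross-presenting dendritic cells for actin exposed on dead cells, had 5.14, 5.93 and 4.93 CPM in MI, against 16.1, 12.6 and 13.5 CPM in sham, and fell 2.64-fold (adjusted p = 1.21e-05 in edgeR). Other dendritic cell genes moved both ways beside it: of 7 dendritic markers, 5 rose, among them Xcr1 at 15.3 ± 1.44 CPM in MI and 1.93 ± 0.634 CPM in sham, and 2 fell, among them Zbtb46 at 21.3 ± 2.77 CPM in MI and 108.8 ± 11.2 CPM in sham. With total-count scaling 3 of these 5 were still called, while H2-Ab1 (log2 fold change 0.16) and Cd74 (-0.06) were not. The 7 markers summed to 1790.3 to 2453 CPM in MI and 1739 to 1779 CPM in sham, none was at 0 in every library of a group, and their part in the result was not tested. Clec4b1 averaged 4.17 ± 0.445 CPM in MI and 6.20 ± 1.07 CPM in sham, and Clec12b, an inhibitory receptor, averaged 3.07 ± 0.420 CPM in MI and 4.76 ± 1.02 CPM in sham. Their falls were barely past the threshold (adjusted p = 0.0292 and 0.0378) and each was lost in 8 of 14 alternative analyses, with adjusted p up to 0.159 and 0.183. Clec12b overlaps Clec1b, Clec9a and Clec1a in the annotation, and with no strand setting given, reads shared by these genes cannot be told apart.

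**Figure D2:**
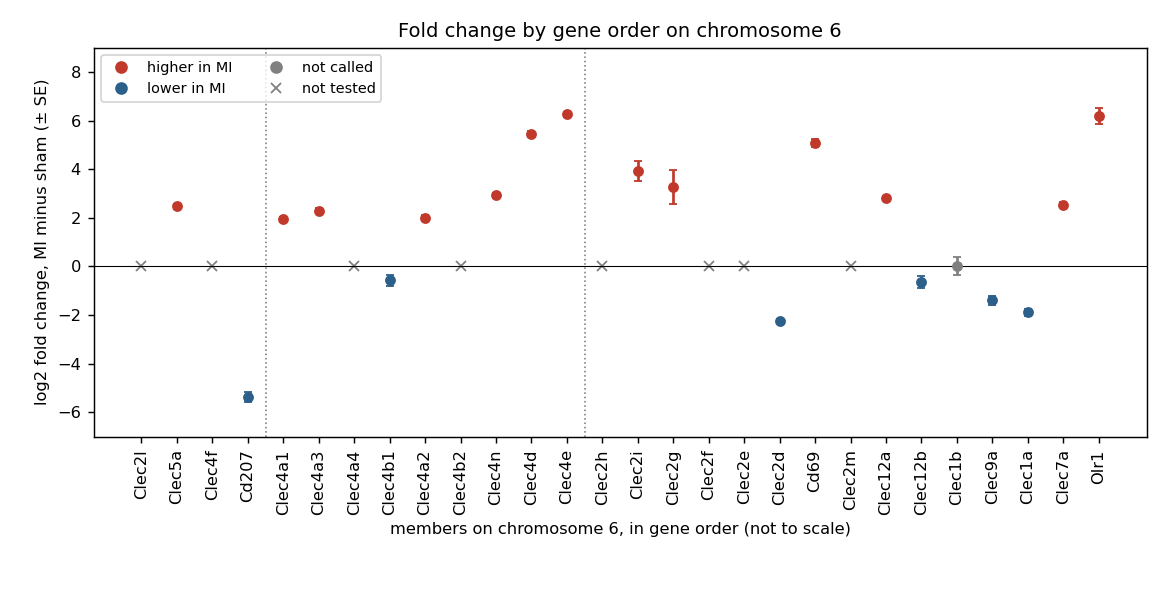
Log2 fold change, MI minus sham, with its SE, for the tested members on chromosome 6 (red higher, blue lower, grey not called) in gene order, not to scale, with grey crosses at 0 for members that were not tested and dotted lines where the Clec4 block and the block from Clec2h to Olr1 begin. In the Clec4 block the values stand highest at its far end, at Clec4d (5.45) and Clec4e (6.26), and the second block holds both higher and lower genes, with Clec12b, Clec9a and Clec1a lower and Clec7a and Olr1 at its end higher.

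Neighbours on chromosome 6, where 28 of the 43 members lie, moved in both directions. The Clec4 block, from 122921848 to 123289871, holds 9 members, of which Clec4b1 was lower, Clec4a4 and Clec4b2 were not tested and the others were higher. The block from Clec2h to Olr1, from 128662385 to 129507350, holds 15 members. Within it the neighbours Clec1a (log2 fold change -1.89) and Clec7a (2.55) moved in opposite directions.

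Resident-type lectins, endocytic receptors known from tissue macrophages and dendritic cells, moved in both directions. Of 10 such genes, 6 were tested, 3 fell, 1 rose and 2 did not pass, where 36.9% of all tested genes fell and 36.4% rose, and the median log2 fold change of the 6 was -2.13. The 3 that fell were below 1 CPM in every MI library and passed the filter on their sham counts. Their direction was thus partly set by the filter, and so were this count and median. With the stricter filter 1 was lower, and with no filter 6 were. The number that rose was 2 without MI 1 or without sham 3. Cd207, which encodes langerin of Langerhans and some dendritic cells, had 0.530, 0.530 and 0.571 CPM in MI, against 21.3, 21.6 and 26.0 CPM in sham. It fell 41.3-fold (log2 fold change -5.37 ± 0.21, SE, adjusted p = 4.25e-10 in edgeR), with no overlap. Cd209f, a relative of the human dendritic cell lectin DC-SIGN, had 0 counts in every MI library, against 5.20, 4.88 and 3.04 CPM in sham. Set against the limit of 3 counts over the MI group, it was at least 83.9-fold lower (adjusted p = 1.31e-06), a bound for counting error only. Cd209g, another such relative, had 0.0530, 0.159 and 0 CPM in MI, against 1.98, 1.80 and 1.66 CPM in sham, with 4 counts over the MI group, and fell 22.5-fold (adjusted p = 5.46e-05). The Cd209 genes are close paralogs and their counts are uncertain.

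Mrc1, the mannose receptor CD206, was the resident-type member that rose. It had 821, 567 and 639 CPM in MI, against 339.5, 345 and 324 CPM in sham, a 2.01-fold rise (log2 fold change 1.01 ± 0.12, SE, adjusted p = 1.02e-05 in edgeR). All MI libraries lay above all sham libraries, with MI 1 the highest. Other markers of resident-type heart macrophages fell in the same libraries, 7 of 7, where 36.9% of all tested genes fell. They summed to 725 to 758 CPM in MI and 1406 to 1476 CPM in sham, with none at 0 in every library of a group. Their falls ran from 1.16-fold (F13a1, adjusted p = 0.0371 in edgeR) to 17.1-fold (Lyve1, also among the lymphatic markers). Most of the MI sum was F13a1, at 490 ± 43.8 CPM in MI and 568 ± 22.2 CPM in sham. The haemoglobin scavenger receptor gene Cd163, for example, averaged 28.5 ± 4.51 CPM in MI and 213 ± 5.62 CPM in sham. The part of these markers in the results for the class was not tested.

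Clec10a, the galactose-type lectin of macrophages and dendritic cells, had 22.1, 30.6 and 28.7 CPM in MI, against 23.0, 18.7 and 27.6 CPM in sham. Its groups overlapped and it did not pass (log2 fold change 0.23 ± 0.17, SE, adjusted p = 0.223 in edgeR), although without MI 1 it did (log2 fold change 0.39, adjusted p = 0.00476). Ly75, the endocytic receptor DEC-205, averaged 2.16 ± 0.402 CPM in MI and 1.06 ± 0.840 CPM in sham and did not pass either (adjusted p = 0.0647), except without sham 3 (log2 fold change 1.77, adjusted p = 0.0213). Cd209b, Cd209d, Clec4f and Clec4g were too low to test.

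Set against markers of macrophages, Clec4e and Mrc1 parted. The log2(CPM + 0.5) of Clec4e minus the mean of the 11 macrophage and monocyte markers was 0.71 ± 0.11 in MI and -2.15 ± 0.09 in sham, a difference of 2.86. For Mrc1 it was -0.28 ± 0.29 in MI and 2.09 ± 0.02 in sham, a difference of -2.37. Clec10a differed by -3.12 and Clec7a by -0.82 on the same scale. Each of these 4 differences exceeded the spread between libraries, but exact two-sided permutation tests of 3 against 3 libraries cannot go below p = 0.1, which each reached (0.12 adjusted over 6 such measures). The 11 markers themselves rose by log2 fold changes from 1.62 (Csf1r) to 6.45 (Ly6c2). Mrc1 (1.01) and Clec10a (0.23) lay below that range. Clec7a (2.55) lay well within it, so the sign of its difference depends on which markers are averaged. Of the 11 markers, only Ly6c2 rose more than Clec4e (6.26), and Ccr2 came next at 4.76. Chosen after the values were seen, the ratio of Clec4e to Mrc1 was 199 ± 24.8 Clec4e CPM per 100 Mrc1 CPM in MI and 5.15 ± 0.231 in sham (SD, n = 3 each).

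**Figure D3:**
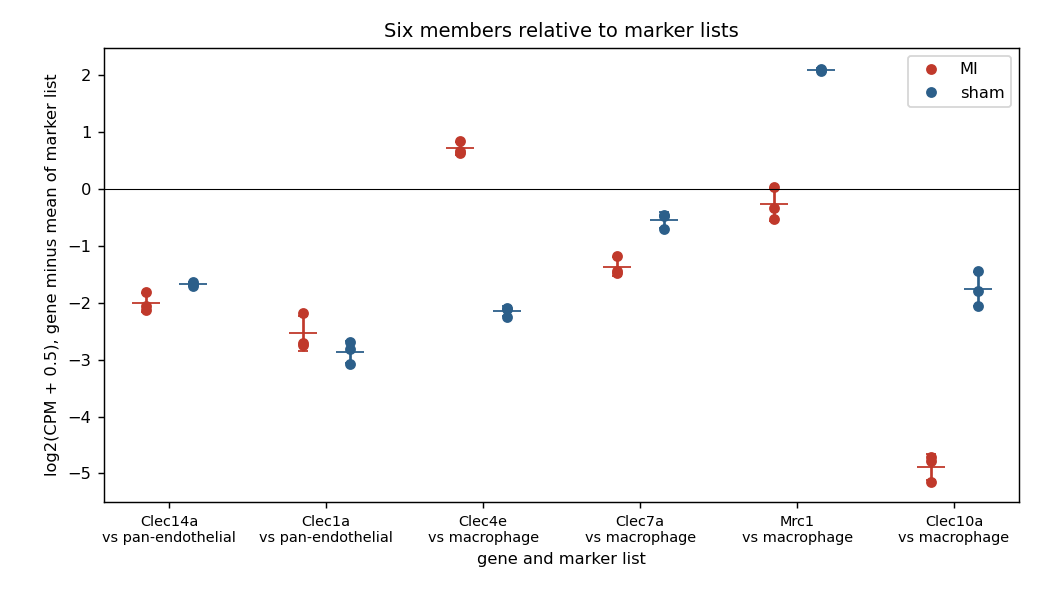
The log2(CPM + 0.5) of 6 members minus the mean over a marker list in each library (dots; MI red, sham blue), with horizontal bars for the group mean and whiskers for the SD. Clec4e lies higher in MI, Mrc1, Clec10a and Clec7a lie lower in MI, and the groups overlap for Clec1a.

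The endothelial Clec14a fell together with other endothelial transcripts. It had 33.2, 30.7 and 28.5 CPM in MI, against 185, 173 and 179 CPM in sham. Every MI library was well below every sham library, and the gene, on chromosome 12 from 58264720 to 58269258, fell 5.82-fold (log2 fold change -2.54 ± 0.09, SE, adjusted p = 3.37e-10 in edgeR). All 13 pan-endothelial markers fell too, with a median log2 fold change of -2.10. They ran from -1.60 (Eng) to -3.02 (Emcn), so Clec14a lay within their range. Relative to their mean, Clec14a was at -2.001 ± 0.165 in MI and -1.67 ± 0.04 in sham, a difference of -0.33 that separated the groups (exact two-sided permutation p = 0.1, n = 3 each, the smallest possible, 0.12 adjusted). Per 100 Pecam1 CPM there were 7.98 ± 0.710 Clec14a CPM in MI and 11.2 ± 0.488 in sham, a ratio chosen after its values were seen.

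The other vascular members differed from one another. Clec1a, found on endothelial cells and some myeloid cells, had 25.7, 18.9 and 19.0 CPM in MI, against 88.6, 66.8 and 80.6 CPM in sham, and fell 3.71-fold (adjusted p = 2.29e-07 in edgeR). Relative to the pan-endothelial markers it was 0.32 higher in MI, within the spread of the libraries (exact two-sided permutation p = 0.3, n = 3 each). Olr1, the receptor for oxidised low-density lipoprotein on endothelial cells and macrophages, had 75.4, 45.8 and 52.5 CPM in MI, against 0.495, 0.770 and 1.1 CPM in sham. It rose 73.3-fold (log2 fold change 6.20 ± 0.34, SE, adjusted p = 1.02e-08), opposite to the other vascular members and with MI 1 the highest library. Olr1 had sham counts of 1.99, 2.54 and 4, so it passed the filter on its MI counts. Its direction was thus partly set by the filter, and the size of its rise rests on few sham counts.

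Among relatives of natural killer receptor ligands, Clec2d moved against the others. Clec2d, in mice a ligand of the inhibitory receptor gene Klrb1b, had 38.8, 46.4 and 43.1 CPM in MI, against 205, 206 and 200.2 CPM in sham, and fell 4.76-fold (adjusted p = 8.26e-10 in edgeR). Cd69, an activation marker of lymphocytes and other leukocytes, had 60.5, 58.6 and 56.7 CPM in MI, against 1.73, 1.54 and 1.93 CPM in sham, and rose 33.7-fold (adjusted p = 1.43e-10). Of 7 markers of lymphocytes and natural killer cells, the 2 that could be tested fell, and the 7 summed to 0.986 to 1.43 CPM in MI and 4.97 to 5.94 CPM in sham, with Cd3e at 0 in every MI library and Cd3g, Ncr1 and Nkg7 at 0 in every sham library. Their part in the result was not tested. Clec2i rose 15.4-fold, with 15.5, 10.3 and 10.6 CPM in MI, against 1.48, 0.514 and 0.276 CPM in sham. Clec2g rose 9.60-fold at a low level, 1.76 ± 0.452 CPM in MI and 0.168 ± 0.146 CPM in sham. Over the sham group Clec2i had 9.03 counts and Clec2g 1.88. Both thus passed the filter on their MI counts, and their direction was partly set by it. Clec2i, Clec2g and Olr1 were among the 15 members called higher, so that count was partly set by the filter too. Clec2e, Clec2f, Clec2h, Clec2l and Clec2m were too low to test.

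The remaining members have other roles. Clec3b, which encodes the secreted plasminogen-binding protein tetranectin, had 1.49, 3.02 and 2.96 CPM in MI, against 17.6, 18.5 and 20.2 CPM in sham, and fell 7.49-fold (adjusted p = 3.41e-07 in edgeR). Mrc2, a collagen uptake receptor of fibroblasts, had 25.9, 27.6 and 28.2 CPM in MI, against 16.6, 15.7 and 19.9 CPM in sham, and rose 1.57-fold (adjusted p = 6.36e-04). Fibroblast markers went both ways beside them, with 2 of 5 higher and 3 lower, sums of 1002 to 1044 CPM in MI and 982 to 985 CPM in sham, and none at 0 in every library of a group, and their part was not tested. Clec1b, the platelet receptor for podoplanin, averaged 1.32 ± 0.196 CPM in MI and 1.30 ± 0.283 CPM in sham and did not pass (adjusted p = 0.967), while 5 platelet markers summed to 335 to 447 CPM in MI and 109 to 126 CPM in sham. Most of that sum was Pf4, at 360.3 ± 56.9 CPM in MI and 108 ± 6.76 CPM in sham. Of the 5, Pf4 and Ppbp rose, Itga2b did not pass (2.65 ± 0.229 CPM in MI and 2.50 ± 0.962 CPM in sham), and Gp9 and Gp1bb were not tested. Clec11a, a secreted growth factor, at 1.44 ± 0.277 CPM in MI and 2.18 ± 0.878 CPM in sham, did not pass (adjusted p = 0.168), except with total-count scaling (log2 fold change -0.93, adjusted p = 0.0389). Clec16a, a cytoplasmic protein of mitophagy that shares only the name, averaged 64.5 ± 2.40 CPM in MI and 66.4 ± 7.29 CPM in sham and did not pass either (adjusted p = 0.721), except with total-count scaling (log2 fold change -0.39, adjusted p = 0.00447). Clec3a, Clec18a, Clec4a4 and Clec4b2 were too low to test.

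Per length, the make-up of the family changed between the groups. The 43 members summed to 3975, 3423 and 3590.4 TPM in MI, against 1059, 1038 and 1057 TPM in sham. Clec4d made up 27.3 ± 2.22% of this sum in MI and 2.43 ± 0.329% in sham, and Clec4e made up 26.0 ± 1.31% in MI and 1.34 ± 0.0853% in sham (SD, n = 3 each). Clec2d made up 1.70 ± 0.175% in MI and 31.4 ± 0.852% in sham. The myeloid sensing class took 86.9 ± 1.01% in MI and 30.4 ± 0.521% in sham, the resident-type class 6.82 ± 0.898% in MI and 18.5 ± 0.134% in sham, and the vascular class 1.38 ± 0.251% in MI and 11.6 ± 0.715% in sham. Within the vascular class the shares went in both directions. Olr1 took 0.760% in MI and 0.0466% in sham, Clec14a 0.316% in MI and 7.16% in sham, and Clec1a 0.304% in MI and 4.40% in sham.

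**Figure D4:**
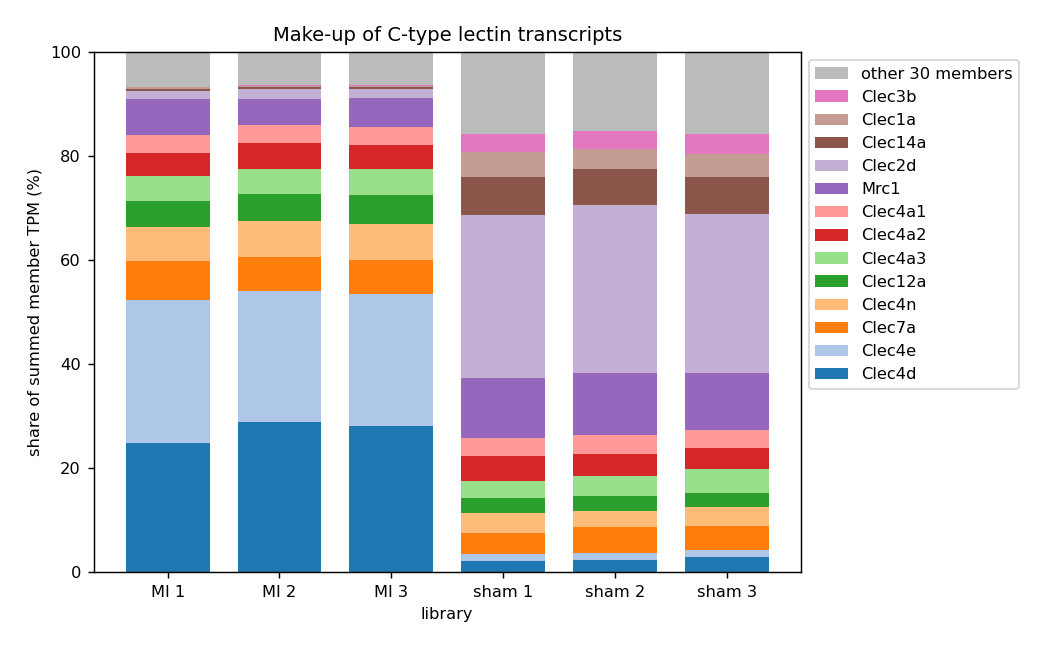
Share of the summed TPM of all 43 members (percent, vertical axis) taken by 13 named genes and by the rest in each library, with MI on the left. Clec4d and Clec4e fill the lower part of every MI bar, and Clec2d and Mrc1 take the largest shares of every sham bar.

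By TPM level, Clec4d (994 ± 13.9) and Clec4e (954 ± 122) led in MI, and their libraries overlapped. Clec7a, Clec4n, Mrc1, Clec12a, Clec4a3 and Clec4a2 followed, at means of 253 to 169.9 TPM, and each neighbouring pair overlapped. In sham the order was Clec2d (330.0 ± 6.26), Mrc1 (120.5 ± 4.27) and Clec14a (75.3 ± 2.47), with no overlap between these neighbours, and then Clec7a (48.1 ± 3.71) and Clec1a (46.3 ± 6.31), which overlapped. Clec4e was the 17th of the 43 in sham, at 14.1 ± 0.834 TPM.

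Most genes that carry the signal of activating lectins rose. Of 17 genes of Syk and Card9 signalling, 16 rose and 1 fell, where 36.4% of all tested genes rose and 36.9% fell. The median log2 fold change of the 17 was 2.36, against -0.01 over all genes, although 14 rose when libraries were scaled to total counts. The kinase gene Syk averaged 758 ± 10.9 CPM in MI and 44.0 ± 2.34 CPM in sham and rose 17.2-fold. Prkcd, the kinase that activates Card9, rose too, with 279 ± 4.12 CPM in MI and 39.9 ± 0.805 CPM in sham. Vav1, an exchange factor, rose 9.80-fold, the phospholipase gene Plcg2 8.31-fold and the receptor chain gene Fcer1g 7.42-fold, with adjusted p from 5.41e-10 to 1.004e-11 for these 5 genes in edgeR. The Src family kinase gene Fyn fell 1.48-fold. Of the phosphatase genes that act for inhibitory lectins, Inpp5d and Ptpn6 rose 5.60-fold and 7.21-fold. Ptpn11 averaged 108 ± 7.27 CPM in MI and 114 ± 1.88 CPM in sham and did not pass (adjusted p = 0.439), though it fell with total-count scaling (log2 fold change -0.43).

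Ligands and partners went mainly up. Of 10 tested among 14 listed, 9 rose and 1 fell, where 36.4% of all tested genes rose and 36.9% fell. The median log2 fold change of the 10 was 2.26, against -0.01 over all genes, and with total-count scaling 8 rose and 1 fell. Pdpn, which encodes the Clec1b ligand podoplanin, averaged 202 ± 7.01 CPM in MI and 4.93 ± 0.960 CPM in sham and rose 40.8-fold. The Clec14a partner Mmrn2 averaged 82.8 ± 2.20 CPM in MI and 355 ± 18.6 CPM in sham and fell 4.29-fold. S100a9 rose 22.3-fold, and the Dectin-1 binding proteins' genes Vim and Anxa1 rose 3.79-fold and 3.95-fold. The neutrophil markers, S100a8 and S100a9 among them, summed to 643 to 802 CPM in MI and 34.4 to 43.1 CPM in sham.

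Close relatives of Clec14a did not move as one. Thbd, which encodes the endothelial anticoagulant thrombomodulin, fell 3.96-fold, with 88.5 ± 8.16 CPM in MI and 350.2 ± 13.1 CPM in sham. Cd248 fell 1.53-fold. Cd93, found on endothelial and myeloid cells, averaged 769.8 ± 98.2 CPM in MI and 652 ± 12.3 CPM in sham, a rise of 1.18-fold (adjusted p = 0.0336 in edgeR). With total-count scaling Cd93 was not called, and its log2 fold change turned to -0.11.

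Cytokines and enzymes known downstream of these receptors were all higher, 10 of 10 tested, where 36.4% of all tested genes were higher. The median log2 fold change of the 10 was 3.39, against -0.01 over all genes. With total-count scaling 9 were higher and Il6 was not called. The interleukin gene Il10 averaged 1082 ± 37.6 CPM in MI and 13.9 ± 2.86 CPM in sham and rose 78.4-fold. Nlrp3, of the inflammasome, rose 7.15-fold, Il1b 8.59-fold, Cxcl2 12.8-fold and Tnf 5.66-fold. These genes also answer to other receptors, and the 11 macrophage and monocyte markers, none at 0 in every library of a group, rose in the same libraries with a median of 3.34. The part of those markers in these lists and in the rise of the myeloid sensing lectins was not tested.

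**Figure D5:**
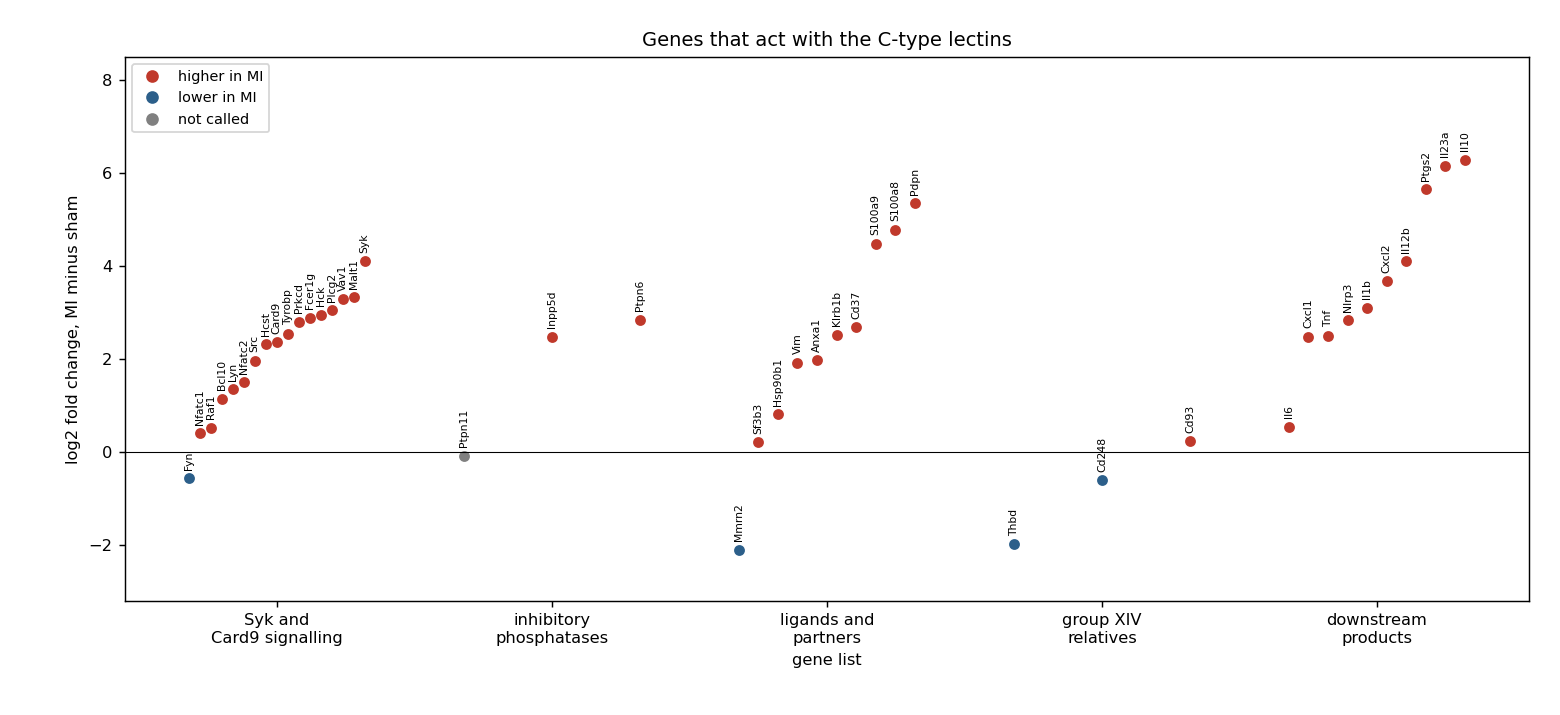
Log2 fold change, MI minus sham, of each tested gene in 5 lists of genes that act with the C-type lectins (red higher, blue lower, grey not called), ordered by value within each list. Syk at 4.10, Pdpn at 5.35 and Il10 at 6.29 stand highest in their lists, and Mmrn2 and Thbd lie near -2.10 and -1.98.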

How the data were processed

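Per the series' design text, libraries were sequenced on a BGISEQ-500 and mapped to GRCm38, given as GRCm38.p6 per the submitters' processing notes. Aligner, counter and strand setting are not given in the sources used here. Per gene, the authors deposited unscaled estimated counts, and also TPM and FPKM. A scaled read count, a signal value, was deposited as well and, like the FPKM and the authors' group means, was not used. Groups came from the sample labels.

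The counts, rounded to integers, were tested in edgeR 4.0.16 (R 4.3.3). Its filterByExpr kept 13370 of 17714 genes, which were TMM-scaled and entered a quasi-likelihood fit on group alone. Each SE was taken as log2 fold change over the root of the F statistic. Adjusted p are two-sided Benjamini-Hochberg values over all genes, called below 0.05. The procedure was checked on simulated counts. Alternatives used DESeq2 1.42.0, limma-voom (limma 3.58.1), RLE or total-count scaling, no filter or a stricter one, the replicate number as a block, MI counts thinned to sham depth, and each library left out. All 43 members matched RefSeq GRCm38.p6 by Entrez identifier.

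The members, classes and lists were chosen with earlier results of these data known. Values are given for members with a mean of at least 1 CPM in the higher group, and for up to 5 pathway genes of smallest p per list. Fyn, Ptpn11, Vim, Anxa1, Il6, Tnf and the marker genes were named for their place in a count or role, after their values were seen. Of these, Ptpn11, Vim, Anxa1 and Tnf also fell under the rule of smallest p in their lists. A count of 0 over a group allows up to 3 counts, which is 0.260 CPM over sham and 0.0526 CPM over MI, for counting error only.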

Additional observations from a re-analysis of the deposited data

How the results depend on the processing

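Of the counts and main values recomputed under the alternatives, 215 kept their direction and stayed within 1.5 times of the reported count or on their side of the threshold, and 13 did not. The myeloid sensing members lower in MI numbered 3, and 1 with DESeq2, with no filter on low counts, with the replicate block or with MI thinned to sham depth, where Clec4b1 and Clec12b lost their calls, and 1 to 2 with a library left out. The resident-type members lower in MI numbered 3, and 6 with DESeq2 or no filter and 1 with the stricter filter, which changed how many were tested. The resident-type members higher in MI numbered 1 to 2 with a library left out. With total-count scaling, chosen for these lists after seeing the data, 1 phosphatase gene was lower instead of 0 and 0 relatives of Clec14a were higher instead of 1. All reversals were in members that did not pass. Clec16a was at a log2 fold change of 0.0119 with DESeq2, 0.0128 with no filter and up to 0.0185 with a library left out (7.92e-04 without sham 2). Clec1b was at -0.33 with total-count scaling, -0.0799 with limma-voom and -0.15 to 0.17 with a library left out, and Clec10a was at -0.12 with total-count scaling. Apart from the counts given, the cause was not tested.

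Samples with the same number did not deviate together (correlations of -0.05, -0.02 and 0.02), so the numbers were not taken as pairs. The replicate block called 9635 genes, against 9801 without it. The sham depth limits the detection of members below about 1 CPM.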
